A study of Rattus norvegicus with 2 samples.

Results

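The genes of the cytosolic ribosome and of translation initiation and elongation were compared between cultured rat endothelial cells of the endocardium, the lining of the heart chambers, and of the aorta. A gene was taken in when the platform annotation paired at least 1 of its probe sets with that gene symbol alone and the symbol was that of a ribosomal protein (Rpl, Rps, Rplp0 to Rplp2, Rpsa), an initiation factor (Eif) or an elongation factor (Eef), leaving out the kinase symbols that begin with Rps6k and Eif2ak. This gave 66 of the 4736 genes on the array, of which 29 belong to the large ribosomal subunit, 14 to the small subunit, 18 to initiation and 5 to elongation, read by 101 probe sets. Per the labels, both cell types came from the same 2 rats, were pooled by origin across the animals, were grown through 2 passages under closely similar conditions of culture and confluence, and gave total RNA that was read on Affymetrix rat U34A arrays. There was 1 array of aortic and 1 of endocardial cells, so differences are described without a test, and how far repeat cultures would vary is unknown. Age, sex and strain of the rats are not given in the labels.

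Each array gave 1 intensity per probe set, on a linear scale, brought here to a trimmed mean common to both arrays. A floor of 635.4, the median of all scaled values, stood for the lowest usable intensity, and the brightest of 38 background controls, which match no rat transcript or the opposite strand, read 1742.4. Ratios are log2 of endocardial over aortic intensity, so a negative value means a lower endocardial intensity, and pairs of intensities are given with the aortic array first. Intensities of different probe sets cannot be set against each other as transcript levels. Of the 66 genes, 64 had a probe set above the floor on at least 1 array, and 53 had all of their probe sets above 1742.4 on both arrays. The remaining 2 genes, Eef1a2, the muscle and neuron form of elongation factor 1 alpha, and the pseudogene Rps2-ps1, were under the floor on both arrays with each of their probe sets.

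The cytosolic ribosome joins a small subunit, which holds the mRNA and decodes it, with a large subunit, which forms the peptide bond, and each carries its own set of ribosomal proteins in about equal copy number. Initiation factors bring the initiator tRNA and the mRNA cap to the small subunit, and elongation factors deliver aminoacyl-tRNA and move the ribosome along the mRNA. Messenger RNAs of ribosomal proteins and several elongation factors begin with a C followed by a run of pyrimidines, the 5′ terminal oligopyrimidine tract, through which their translation is regulated together.

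RefSeq start sites of the GRCr8 assembly were available for 57 of the 66 genes. A C at the annotated start followed by at least 4 pyrimidines (C or T), read on the strand of the gene, was present in 11 of 36 ribosomal protein genes (30.6%) and 0 of 21 translation factor genes, against 3.11% of all 27457 genes in the same table. Within 5 bases of the annotated start such a run was found for 17 of the 36 (47.2%) and 4 of the 21 (19.0%), against 19.0% of all genes. Eef1a1 was among the 4. The starts used in these cells were not mapped, so a missing run at the annotated base does not show that an mRNA lacks the tract. The windows below, of 20 bases before and 20 after the start, show this shared feature in ribosomal protein genes whose values follow. Capitals mark the C at the start and the pyrimidines that continue from it. Rps24 is shown as a gene with T at the annotated start, inside a pyrimidine run that begins before it, so no base is in capitals, and Eif2b3 as an initiation factor with no run.
Rpl14 (chr8:129163600-129163639, + strand): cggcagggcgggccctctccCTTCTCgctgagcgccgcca
Rpl19 (chr10:83519044-83519083, + strand): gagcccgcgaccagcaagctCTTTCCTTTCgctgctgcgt
Rpl22 (chr5:168117941-168117980, + strand): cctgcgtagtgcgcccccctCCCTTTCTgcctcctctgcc
Rpl31 (chr9:49143091-49143130, + strand): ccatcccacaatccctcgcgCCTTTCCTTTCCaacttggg
Rpl35a (chr11:81235002-81235041, - strand): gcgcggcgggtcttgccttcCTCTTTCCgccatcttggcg
Rplp0 (chr12:46718371-46718410, - strand): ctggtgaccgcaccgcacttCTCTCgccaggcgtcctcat
Rps15 (chr7:10068096-10068135, - strand): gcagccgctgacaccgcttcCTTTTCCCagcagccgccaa
Rps3a (chr2:173827023-173827062, - strand): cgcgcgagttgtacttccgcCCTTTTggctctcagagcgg
Rps24 (chr16:96497-96536, + strand): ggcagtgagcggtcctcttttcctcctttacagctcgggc
Eif2b3 (chr5:135728822-135728861, + strand): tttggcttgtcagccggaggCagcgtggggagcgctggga

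Ribosomal protein genes differed little between the arrays, and most lay slightly lower on the endocardial array. Of 42 measured ribosomal protein genes, 31 had a ratio below 0 and 11 above 0, with a median log2 ratio of -0.14 against -0.02 over all 2935 measured genes. No member of any class reached a 2-fold difference, while over all measured genes 5.93% passed 2-fold towards the endocardial side and 4.16% towards the aortic side. At 1.5-fold, 2 of the 64 measured members were higher (Rpl30 and Eif2b5), against 13.1% of all genes, and 1 was lower (Rps24), against 11.2%. A ratio above 0 was found for 21 of 64 members (32.8%) and for 47.7% of all measured genes. This split depended on the scaling. After quantile normalization 45.3% of members were above 0, against 47.9% of all measured genes. After a loess correction of the ratio for intensity 43.8% of members were, against 50.5% of all measured genes. The ribosomal protein median was then -0.02 under both.

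**Figure D1:**
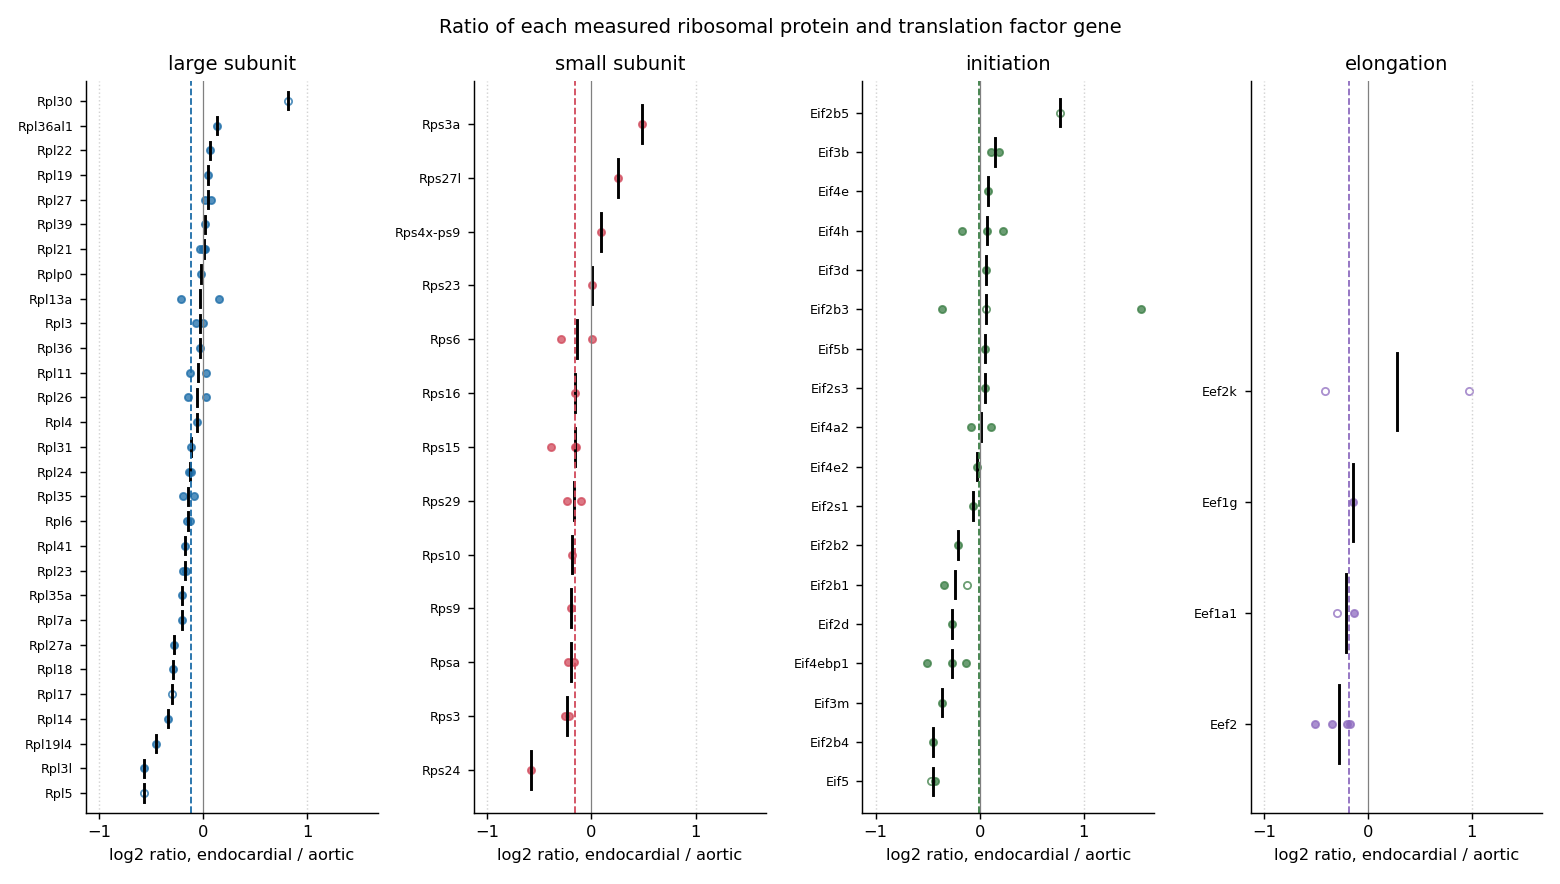
Log2 ratio of endocardial over aortic intensity for each of the 64 measured genes, by class. Points are probe sets (open where an array read at or under 1742.4), black bars the gene value (median of its probe sets), dashed lines the class median, and dotted lines 2-fold. No black bar reaches a dotted line. The 1 point past 2-fold is a probe set of Eif2b3.

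Genes read by several probe sets show how closely single ratios were measured. Among 15 ribosomal protein genes with 32 probe sets above 1742.4 on both arrays, the log2 ratios of probe sets of the same gene had an SD of 0.11. Among 6 translation factor genes with 16 such probe sets the SD was 0.46, so ratios of single factors were measured less closely. These SDs compare probe sets on the same 2 arrays, so an error shared by all probe sets of an array is not in them. For most of the ribosomal protein genes compared, such as Rpl11, Rpl23, Rps3 and Rps6, probe sets read the same sequence record and are not independent. How far cultures of the same origin differ is unknown. Ribosomal proteins were read at high intensity, and other bright genes had similar ratios. Above an intensity of 20000 on both arrays, a limit chosen after the values were seen, 33 ribosomal protein genes had a median log2 ratio of -0.13 and 87 genes that are not members had -0.10. The spread differed more than the centre: the SD of log2 ratios was 0.16 over the 33 ribosomal protein genes and 0.34 over the 87 others, and 0 of the 33 against 8 of the 87 (9.20%) were past 1.5-fold. The bacterial and phage transcripts added to the hybridisation, 9 probe sets in all, had a median log2 ratio of 0.01 and ranged from -0.25 to 0.36. Of these, the 2 CreX probe sets lay in the intensity range of the ribosomal proteins and had log2 ratios of -0.06 (63479 aortic, 60739 endocardial) and 0.01 (49494 and 49973).

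**Figure D2:**
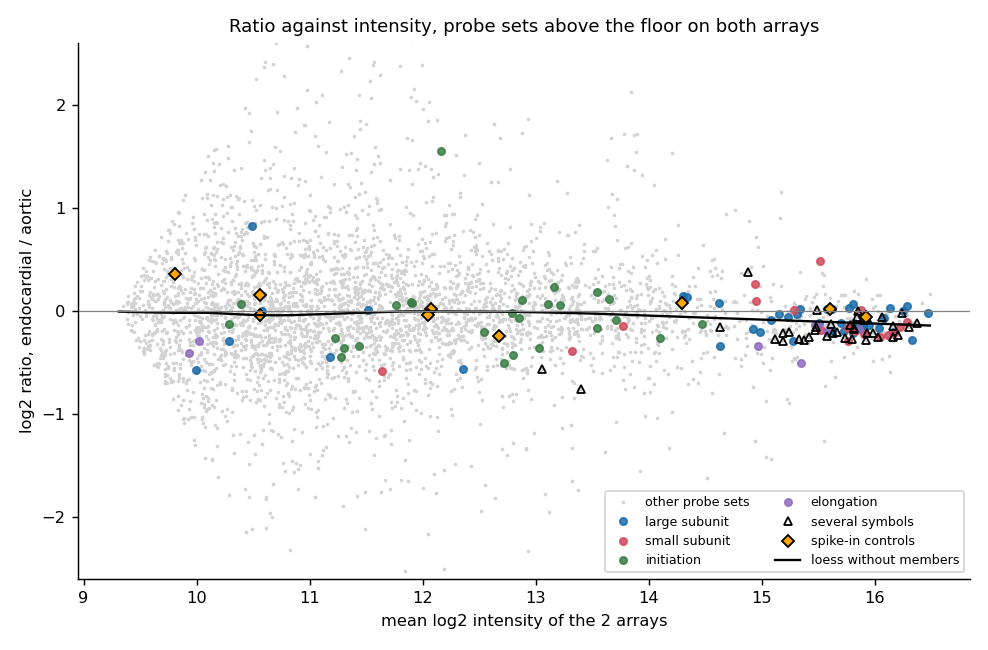
Log2 ratio of endocardial over aortic intensity against the mean log2 intensity of the 2 arrays, for probe sets above the floor on both; grey points are other probe sets, coloured points members by class, triangles ribosomal and Eif5 probe sets annotated with several symbols, diamonds the 9 added control transcripts, and the line a loess fitted without the members. Points beyond the axis limits are not drawn. Bright probe sets of all kinds dip slightly below 0, while the 2 bright CreX controls lie at -0.06 and 0.01.

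In the large subunit, 22 of 29 genes were below 0 and 7 above, with a median log2 ratio of -0.12 and quartiles at -0.21 and -0.02. Rplp0, the scaffold of the stalk that binds the elongation factors, read 90992 and 89782 (-0.02). Rpl27a read 90627 and 74476 (-0.28), and Rpl19 read 78181 and 80857 (0.05). These 3 genes had the highest mean intensity of the 2 arrays in the class, and each lay within 1.5-fold between the arrays. Rpl3, which lies close to the peptide-forming centre, had probe sets at 71062 and 67677 (-0.07) and at 77944 and 78056 (0.00). Rpl21 showed how closely probe sets could agree. Its 4 probe sets had log2 ratios from -0.03 to 0.01, at intensities from 1530 to 41606.

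The lowest ratios of the large subunit came from probe sets with modest intensities. Rpl5, which carries the 5S ribosomal RNA into the ribosome, read 1244 (aortic) and 837 (endocardial), a log2 ratio of -0.57, with both values under the brightest background control. A different probe set, annotated with Rpl5 and its copy Rpl5l1, read 63207 and 59293 (-0.09). Rpl3l, the striated muscle paralog of Rpl3, read 6366 and 4296 (-0.57) on 1 probe set, while its second probe set was under the floor on both arrays (244 and 86). Rpl19l4 read 2705 and 1978 (-0.45). Rpl17, at 1386 and 1129 (-0.30), was also under the brightest background control on both arrays. Among genes with brighter probe sets, Rpl14 read 28545 and 22560 (-0.34) and Rpl18 43783 and 35683 (-0.30), the lowest ratios of the large subunit above 20000.

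At the other end, Rpl30 read 1080 (aortic) and 1905 (endocardial; log2 ratio 0.82), its aortic value being dimmer than the brightest background control. Against that control as the floor its log2 ratio was 0.13, and a brighter probe set annotated with Rpl30 and several of its copies went the other way, from 40052 to 34591 (-0.21). The 2 next highest genes were Rpl36al1 at 19716 and 21629 (0.13) and Rpl22 at 55862 and 58356 (0.06). Rpl26, Rpl11, Rpl13a, Rpl3 and Rpl21 each had probe sets on both sides of 0. The widest apart of these were the 2 of Rpl13a, a protein that in other settings also leaves the ribosome to silence inflammatory mRNAs, with log2 ratios of -0.21 (61770 and 53350) and 0.15 (19211 and 21275).

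In the small subunit, 9 of 13 measured genes were below 0 and 4 above, with a median log2 ratio of -0.16. The highest value was that of Rps3a, which read 39610 (aortic) and 55418 (endocardial), 1.40-fold higher (log2 ratio 0.48). It was the highest of the 33 ribosomal protein genes above 20000, and its ratio stayed between 0.47 and 0.63 in all 14 processing settings, but it rests on 1 probe set. Rps27l, a paralog of Rps27 that p53 induces, read 28788 and 34429 (0.26), and Rps4x-ps9, annotated as a pseudogene of Rps4x, read 30545 and 32561 (0.09). The other 2 probe sets annotated with both Rps4x and Rps4x-ps9 had log2 ratios of -0.02 and -0.17.

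Most of the other small subunit genes were close together below 0. Rps23 lay just above 0, at 60016 and 60279 (0.01), and Rps24 lay apart as the lowest. Rps3, at the mRNA entry channel and also a DNA repair factor, had probe sets at 73884 and 61875 (-0.26) and at 79149 and 68106 (-0.22). Rpsa, also known as the laminin receptor, had probe sets with log2 ratios of -0.17 and -0.22, and Rps29 of -0.10 and -0.23. Rps16 read 80765 and 72492 (-0.16). The 3 probe sets of Rps15 were all lower on the endocardial array, with log2 ratios of -0.15, -0.16 and -0.39. Rps6, the target of the S6 kinases, was split, with 39724 and 39827 (0.00) on 1 probe set and 61393 and 50246 (-0.29) on another that reads the same sequence record. Rps24, at 3911 and 2607 (-0.59), was the only member past 1.5-fold lower. It lay on that limit, and a second probe set of the same record, annotated with Rps24 and its copy Rps24-ps15, read 68211 and 56127 (-0.28).

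**Figure D3:**
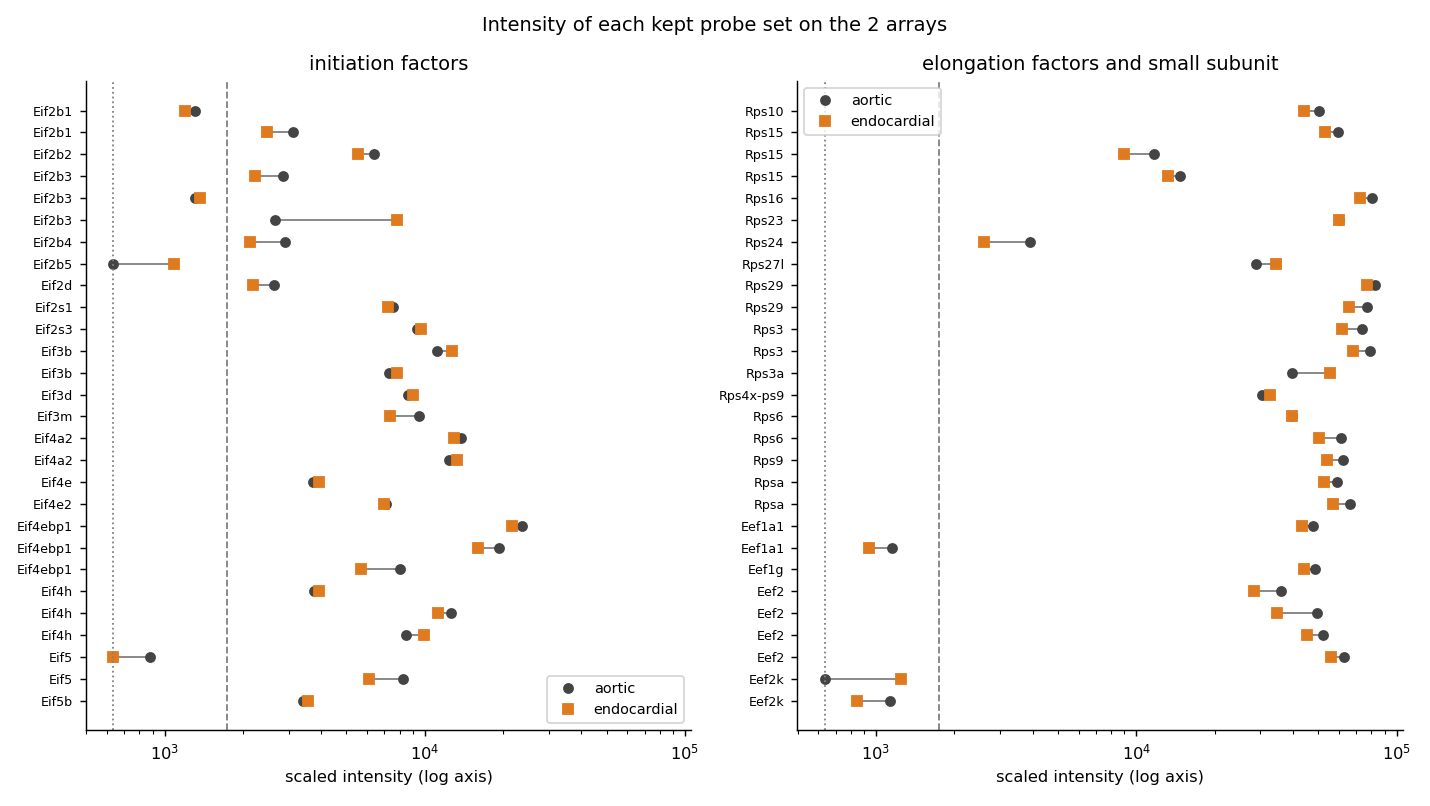
Scaled intensity (log axis) of each kept probe set on the aortic (circles) and endocardial (squares) array for the initiation factors (left) and for the elongation factors and small subunit (right); values under the floor are drawn at it. The dotted line is the floor (635.4) and the dashed line the brightest background control (1742.4). The widest gap is that of 1 of the 3 probe sets of Eif2b3, and the Rps3a square lies to the right of its circle.

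Initiation factors had no common direction. Of 18 genes, 9 were above and 9 below 0, with a median log2 ratio of -0.01, and this median turned to 0.02 or 0.03 with quantile normalization, median centring or loess. The factor eIF2, which brings the initiator tRNA, was read by Eif2s1 (its alpha subunit, which stress kinases phosphorylate) at 7540 and 7196 (-0.07) and by Eif2s3 (its gamma subunit) at 9307 and 9643 (0.05). Eif2d, an eIF2-independent tRNA delivery and recycling factor, read 2628 and 2187 (-0.27).

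The subunits of eIF2B, the exchange factor that recharges eIF2 with GTP, spread most widely. Eif2b4 read 2896 and 2123 (-0.45), Eif2b2 6407 and 5562 (-0.20), and Eif2b1 had probe sets with log2 ratios of -0.13 and -0.34. Eif2b3 could not be given 1 value. One of its 3 probe sets read 2667 (aortic) and 7812 (endocardial), 2.93-fold higher, whereas the other 2, which share a sequence record, read 2864 and 2224 (-0.37) and 1312 and 1371 (0.06). Its gene ratio therefore ran from 0.03 to 1.55 over the processing settings. Eif2b5 was under the floor on the aortic array (318) and at 1086 on the endocardial array, at least 1.71-fold higher against the floor, but both values lie under the brightest background control. Eif2b5 was measured through the array where it is high, so its ratio could only be positive.

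The eIF3 complex, which bridges the small subunit and the mRNA, went both ways. Both probe sets of Eif3b, which share a sequence record, were higher (11139 to 12675 and 7260 to 7824, log2 ratios of 0.19 and 0.11). Eif3d read 8633 and 9028 (0.06), and Eif3m read 9461 and 7361 (-0.36). For cap recognition, the cap-binding protein Eif4e read 3707 and 3919 (0.08) and its paralog Eif4e2, a repressor-type cap binder, 7108 and 7001 (-0.02). The helicase Eif4a2 had log2 ratios of -0.09 and 0.11 and its stimulator Eif4h of -0.17, 0.07 and 0.23. Eif4ebp1, which holds Eif4e inactive until mTOR phosphorylates it, was lower with all 3 probe sets, at 23674 and 21657 (-0.13), 19201 and 15973 (-0.27) and 8042 and 5665 (-0.51). All of these but the dimmest share a sequence record.

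Eif5, the GTPase activator of eIF2 at the start codon, had a gene log2 ratio of -0.45, like that of Eif2b4. It read 8238 (aortic) and 6114 (endocardial) with 1 probe set (-0.43) and 878 and 585 with another, whose endocardial value was under the floor. A further 2 probe sets, annotated with Eif5 and its pseudogene Eif5-ps1 and so outside the gene value, read 14033 and 8287 (-0.76) and 10329 and 6994 (-0.56). All 4 were thus lower on the endocardial array, the first 2 by a ratio that stayed between -0.51 and -0.42 over the settings. Eif5b, which joins the subunits, read 3410 and 3543 (0.05).

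Of the elongation factors, all probe sets of the 3 that carry out elongation were lower on the endocardial array. Eef2, the translocase, read 35987 and 28409, 49602 and 34849, 52272 and 45357, and 63016 and 55875 with its 4 probe sets, log2 ratios of -0.34, -0.51, -0.20 and -0.17. Its gene ratio of -0.27 moved between -0.31 and -0.16 over the settings. Eef1a1, which delivers aminoacyl-tRNA, read 47596 and 43388 (-0.13) with 1 probe set and 1148 and 936 (-0.30) with another that lay under the brightest background control, and Eef1g, a subunit of its exchange factor, read 48659 and 44071 (-0.14). Eef2k, the kinase that inactivates Eef2, had probe sets of opposite sign (579 to 1244, and 1127 to 848), all under that control. The class median over 4 measured genes was -0.18 and lay between -0.21 and -0.09 over the settings.

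**Figure D4:**
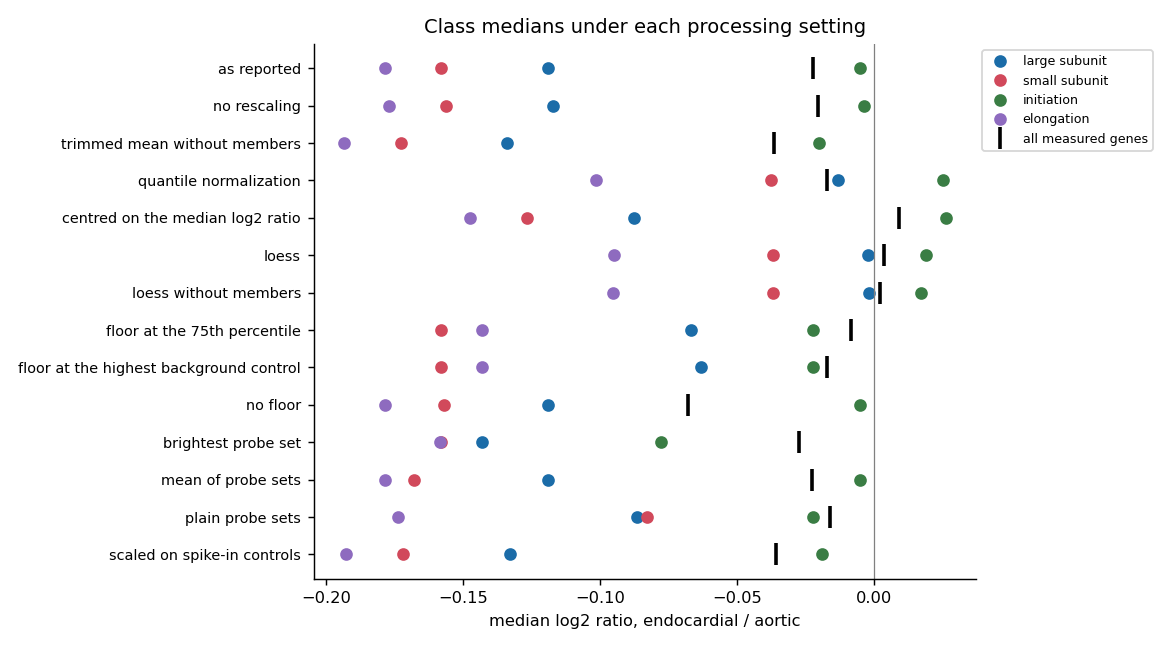
Median log2 ratio of endocardial over aortic intensity for the 4 classes (points) and for all measured genes (black bars) under the reported processing and 13 alternatives. With quantile normalization or loess the large subunit median lies between -0.02 and 0, and the small subunit median at -0.04.

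Apart from translational control, given below, other lists of the translation machinery had 0 genes past 2-fold and 1 gene, Pelo, past 1.5-fold. Of all measured genes, 5.93% passed 2-fold towards the endocardial side and 4.16% towards the aortic side, and 24.3% passed 1.5-fold in either direction. Of 11 measured genes of ribosome biogenesis and the nucleolus, 4 were above and 7 below 0 (median -0.07) and 0 passed 1.5-fold. The lowest were Ubtf, the transcription factor of ribosomal RNA genes (-0.32, its endocardial value under the brightest background control), and nucleolin, Ncl (-0.31), and the highest were the RNA polymerase I subunit Polr1b (0.47, from 673 to 936, under the brightest background control) and the exonuclease Xrn2 (0.23). Of 5 aminoacyl-tRNA synthetase genes, 0 passed 1.5-fold, with a median of -0.05, Kars1 (-0.10) and Tars1 (-0.08) lowest and Vars1 (0.27) and Farsa (at least 1.09-fold higher against the floor) highest. Both were under the brightest background control on the 2 arrays, and Farsa passed the floor through the endocardial array alone, so its ratio could only be positive. Of 5 mitochondrial translation genes 0 passed 1.5-fold, with a median of -0.19, Gfm1 (-0.29, its endocardial value under that control) and Tufm (-0.26) lowest, and Mrpl3 (0.45) and Mrpl13 (0.19) highest. Among 6 other transcripts of the terminal pyrimidine class the median was -0.13, with the small subunit component Rack1 (0.10, from 50480 to 53980) and Nap1l1 (0.01) highest and the snoRNA host Gas5 (-0.36, both probe sets lower) and vimentin, Vim (-0.21), lowest. In the termination and recycling list, only Pelo, the ribosome rescue factor, at 2763 and 4556 (0.72, 1.65-fold higher), and Paip1, a partner of the poly(A)-binding protein, at 3000 and 2577 (-0.22), were measured.

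Of 12 measured genes of translational control, 1 passed 2-fold towards the endocardial side, against 5.93% of all measured genes, and 3 towards the aortic side, against 4.16%, with a median of -0.24. Their log2 ratios had an SD of 0.70, against 0.67 over all measured genes, and of the 4 genes past 2-fold Myc alone was above the brightest background control on both arrays. Where a gene of this list had several probe sets, its intensity and its ratio are each the median over them. Myc, a transcriptional activator of ribosome production, read 3915 and 2015 (-1.08), with probe sets at -0.71 and -1.46. Ppp1r15a, which directs eIF2 alpha dephosphorylation under stress, read 3659 and 1638 (-1.08), with probe sets at -0.86 and -1.29 and an endocardial value under the brightest background control. The mRNA-binding protein Ybx1 read 1445 and 705 (-1.04), under the brightest background control. Eif2ak2, the double-stranded RNA kinase that phosphorylates eIF2 alpha, read 804 and 2070 (1.36), with the aortic value under that control. Mtor read 2106 and 2265 (0.10), and the S6 kinase Rps6kb1 read 2876 and 2061 (-0.47), with both probe sets lower.

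Marker sums for other cell types moved between the arrays as well. Of the 7 endothelial markers on the array, Pecam1, Vwf, Kdr and Icam2 did not reach the floor on either array, and Flt1, Nos3 and Thbd summed to 6144 (aortic) and 5285 (endocardial). The gene intensities of Flt1 and Nos3 lay under the brightest background control on both arrays, while Thbd read 3921 and 2848 (-0.46). All 7 macrophage and leukocyte markers were measured, 6 with a ratio above 0, and summed to 5290 and 47030, the largest part being Lyz2, while Ptprc stayed under the brightest background control on both. Of these 6, Lyz2, Ctss, Cd74, Aif1 and Cd53 were under the floor on the aortic array, so their ratios could only be positive, and Cd14 read 3246 and 4070 (0.38). The 8 fibroblast markers summed to 273135 and 248925, 5 measured smooth muscle markers to 89815 and 138802, and 5 cardiomyocyte markers to 6349 and 5713. Within these sums single markers went opposite ways, with Dcn at -3.80 and Postn at 2.98 among the fibroblast markers, and Myh11 at -2.00 and Myl9 at 1.54 among those of smooth muscle. Of the measured cardiomyocyte markers, only Tnni3 was above the brightest background control on both arrays. Of 10 measured proliferation genes, 8 were above 0 (median 0.18), against 47.7% of all measured genes. The highest was Plk1, at 757 and 5100 (2.75), its aortic value under the brightest background control. Ccnd1 followed (0.61, with probe sets from -0.32 to 0.98), and Cdc20 (-0.50) and Ccnb1 (-0.34) were lowest. Only Pcna and Mcm7 had gene intensities above the brightest background control on both arrays. Aurkb passed the floor through the endocardial array alone (451 and 685), so its ratio could only be positive. The ratio of 3′ to 5′ control signal was 1.17 and 1.21 for Gapdh and 1.11 and 1.09 for beta-actin on the aortic and endocardial array, near 1 on both. The part of cell composition in the ribosomal ratios was not tested, and fewer cells of a type and less RNA per cell cannot be told apart in such samples.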

How the data were processed

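The members and gene lists were chosen with earlier results of these data known. The deposited values are probe set intensities on a linear scale, which can fall below 0, per the file headers and values; the sources used here name no probe-summary software. From the 8799 probe sets, 59 controls were left out and the 8740 others scaled to the same 2% trimmed mean (factors 1.00 and 0.999). Values under the floor were set to it, and probe sets under it on both arrays dropped, leaving 4808. A gene value was the median log2 ratio over kept probe sets with exactly 1 symbol in the platform annotation (7006 probe sets), not checked by sequence. Of the members, 64 matched a RefSeq table of GRCr8 by gene identifier. The 2 scanner settings that differed were the fluidics module and scan time. With 1 array per group there was no test. Counts were made at 2-fold and 1.5-fold. The steps were tested on simulated data, with large differences planted without noise in bright genes. Differences as small as those described here were not tested in that way. Precision is limited by the number of arrays. Alternatives concerned scaling, floor and probe sets; scaling on added control transcripts and adding probe sets of several symbols were chosen after seeing the data. Named genes were the 3 highest, 3 lowest and 3 brightest of each class, those past 2-fold or near the floor, those with 3 or more probe sets or with probe sets of both signs, paralog pairs, and the 2 highest and 2 lowest of other lists. Further genes (among them Rpl14, Rpl17, Rpl18, Rpsa, the other factors, Mtor, Ybx1 and Rps6kb1) were named after their values were seen, as was the intensity limit of 20000. Analyses used Python 3.11.15, pandas 2.3.3, scipy 1.17.1 and statsmodels 0.14.6.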

Additional observations from a re-analysis of the deposited data

Results flagged for a closer look

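Ribosomal probe sets that the annotation pairs with several symbols, a gene and its copies or pseudogenes, were left out of the gene values, and 36 of 37 of them read above the brightest background control on both arrays. Their annotation includes ribosomal proteins with few or no probe sets of their own, such as Rps2, Rps18, Rpl8, Rpl9, Rpl10 and Rpl32. Of the 36, 33 had a lower endocardial intensity and 3 a higher one, with a median log2 ratio of -0.20 and a range from -0.29 to 0.38. A ratio above 0 was found for 47.7% of all measured genes. Among the 87 genes above 20000 that are not members it was found for 35.6%, with a median of -0.10. The probe set annotated with Rps2 and its copies read 88621 (aortic) and 81418 (endocardial), a log2 ratio of -0.12. That of Rpl32 and its copies read 81742 and 69324 (-0.24). The lowest, annotated with Rpl13 and other symbols, read 41301 and 33766 (-0.29). The highest was a probe set of Rpl27a and a copy, which read 26334 and 34238 (0.38), opposite in sign to the probe set of Rpl27a alone (-0.28). With loess fitted without the members the median of the 36 was -0.09, and with quantile normalization -0.07, with 9 of the 36 above 0 in both. Of all measured genes, 50.3% and 47.9% were above 0 under these settings. Which of the symbols each probe set reads was not tested.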

How the results depend on the processing

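The 9 results were recomputed under 123 combinations of result and alternative. The ribosomal medians depended on the scaling: the large subunit median of -0.12 became -0.0020 with loess on all probe sets and -0.0018 with loess without members, -0.013 with quantile normalization, and -0.067 and -0.063 with the higher floors, and the small subunit median of -0.16 became -0.037 with loess, -0.037 with loess without members, -0.037 with quantile normalization and -0.083 with plain probe sets. The initiation factor median of -0.01 turned to 0.026 after median centring, 0.025 with quantile normalization, 0.019 with loess and 0.017 with loess without members. Members at least 2-fold higher numbered 1 with the brightest probe set and 2 with no floor, and members at least 2-fold lower 1 with no floor, against 0. At least 1.5-fold higher were 1 when the floor was the 75th percentile or 1742.4, against 2. At least 1.5-fold lower were 0 with median centring, either loess or no rescaling, and 2 with no floor, quantile normalization, trimmed mean without members or scaling on the added controls, against 1. With all genes, no floor raised the 2-fold counts from 174 to 342 higher (5.93% to 9.5%) and from 122 to 410 lower (4.16% to 11.4%). Measured genes then numbered 3600, against 2935. Floors at the background control or 75th percentile left 1904 and 1505 measured genes. They gave 76 and 45 higher (3.99% and 2.99%) and 45 and 40 lower (2.36% and 2.66%). Of the 42 ribosomal protein genes, 22 stayed below 0 and 8 above 0 in every setting that measured them. Genes under 1742.4 are limited by background. No paired analysis was possible because each group had 1 array.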

Other observations

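The array carries a control probe set for rat 5S ribosomal RNA, a component of the large subunit that is not polyadenylated. It read 3016 (aortic) and 1801 (endocardial), a log2 ratio of -0.74, with the endocardial value just above the brightest background control.

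Among 36 ribosomal protein genes with a RefSeq start site, the 11 with a pyrimidine tract at the annotated start had a median log2 ratio of -0.12, from -0.34 (Rpl14) to 0.48 (Rps3a), with 7 below 0. The 25 without one at that base had a median of -0.15, with 21 below 0. Several of the 25, among them Rps10, Rps23 and Rps24, have such a run within 5 bases of the annotated start. The groups therefore depend on the annotated base and do not separate mRNAs with and without a tract.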
